A study of Mus musculus with 8 samples.

Results

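The cytochrome P450 genes of families 1, 2 and 3, which handle drugs and other foreign compounds, were followed together with Por, the gene of their electron donor, in livers with and without hepatocyte Smo. Members were set by a name rule, chosen with earlier results of these data known. It took every symbol that reads Cyp, then 1, 2 or 3, a letter and a number, plus Por. This gave 59 genes (58 P450 genes and Por) of 25239 symbols. Smo encodes Smoothened, without which cells cannot relay Hedgehog signals, and the comparison asked what its loss from hepatocytes did to a liver with diet-induced steatohepatitis. Bulk RNA was sequenced from 4 control and 4 Smo-KO livers, all from adult male Smo fl/fl mice (Smo tm2Amc/J) on a C57Bl6/J background. All 8 mice ate a choline-deficient, amino acid-defined high-fat diet (CDA-HFD) for 6 weeks, and all were given AAV8, an adeno-associated virus, by tail vein in the final 1 week, its cargo driven by the hepatocyte promoter TBG. The virus carried luciferase in control mice, which the labels list as WT, and Cre recombinase in Smo-KO mice. Cre was thus aimed at hepatocytes and not at the other cells of the liver, and no liver without the diet was analysed here. A whole liver piece was sequenced, so fewer cells of a type and less RNA per cell cannot be told apart. The labels do not say which animals shared a litter or cage.

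Smo itself was at 8.17, 8.49, 8.74 and 8.21 CPM in the control livers and 5.67, 3.93, 4.27 and 4.37 CPM in the Smo-KO livers, and the groups did not overlap (log2 fold change -0.88, SE 0.16, unadjusted p = 0.000101, adjusted p = 0.0957 by edgeR). Its gene lies at chr6:29735497-29761366 (GRCm38), and the counts cover all its exons in all liver cells. Each library held between 8203299 and 9999732 reads on genes, and levels below are counts per 1000000 of those reads after library scaling (CPM). A level of 3 reads, taken as the floor of detection for counting error only, was 0.297 to 0.366 CPM depending on the liver. Control liver 3 had the lowest CPM of all 8 livers in 20 of the 41 tested P450 genes, and control liver 1 had the highest in 12 of them.

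P450 enzymes of these families sit in the endoplasmic reticulum, bind heme and insert an oxygen atom into their substrates. Each needs electrons from NADPH, which P450 oxidoreductase, the product of Por, passes on, and cytochrome b5 can supply part of them. In the mouse the families have grown by gene duplication into clusters, several members are made mostly in males or in females, and most are strongest in hepatocytes around the central vein. Receptors that bind small molecules control many of them: AhR acts on Cyp1a genes, CAR (Nr1i3) on Cyp2b and PXR (Nr1i2) on Cyp3a genes.

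Of the 59 members, 42 (41 P450 genes and Por) had enough reads to be tested, 9 had reads but did not pass the filter, and 8 had no read in any liver. No member that failed the filter had more than 11 reads in a liver. None of the tested members lay above the level of 10 reads in a library of median size in all livers of 1 group and below it in all livers of the other. In the edgeR test over all 12977 genes, 0 genes (0.0%) had an adjusted p under 0.05, so no member did either, while DESeq2 called 163 of 11967 genes (1.36%), Por among them and no P450 gene. At an unadjusted p under 0.05, edgeR gave 9 of the 42 members, against 13.8% of all genes tested. Of these, 5 were higher in Smo-KO livers (Cyp2c37, Cyp2c39, Cyp2d13, Cyp3a13 and Por), where 6.7% of all genes were, and 4 were lower (Cyp2c55, Cyp2j5, Cyp2r1 and Cyp2u1), where 7.15% of all genes were. The 4 + 4 livers did not overlap in 3 members that were higher (Cyp2c39, Cyp3a13 and Por, against 3.03% of all genes) and in 1 that was lower (Cyp2c55, against 4.34% of all genes). The log2 fold change was above 0 in 27 of 42 members, against 49.9% of all genes, with a median of 0.17 against -0.000845 over all genes. Without control liver 3 it was above 0 in 24 of 42 members (50.4% of all genes), with a median of 0.10, and without control liver 1 in 29 of 42 (49.5% of all genes), with a median of 0.21.

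**Figure D1:**
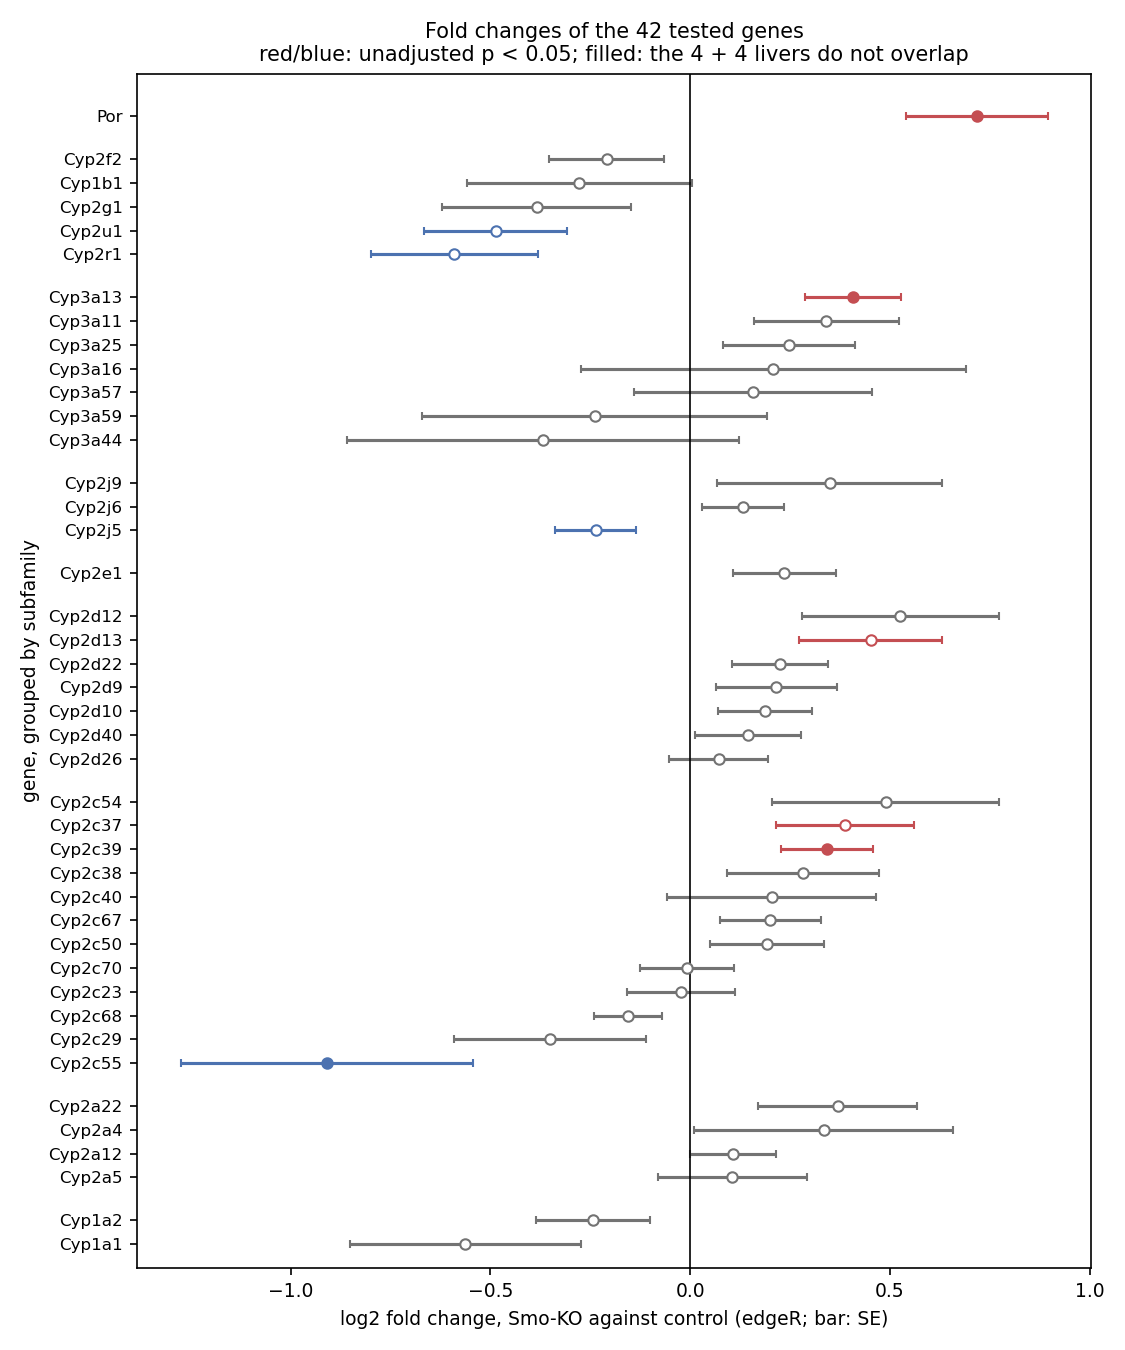
Log2 fold change (x axis, Smo-KO against control) of each of the 42 tested genes, grouped by subfamily on the y axis, with bars of 1 SE from the edgeR fit. Red and blue mark genes at an unadjusted p under 0.05 (5 higher, 4 lower), and filled points the 4 genes whose livers did not overlap. Por has the highest value, 0.72, and Cyp2c55 the lowest, -0.91.

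The set of members at an unadjusted p under 0.05 depended on single livers. It grew to 17 without control liver 1 (14.9% of all genes) and to 14 without Smo-KO liver 1 (17.8% of all genes), and it numbered 6 without control liver 3 (10.6% of all genes). The 17 contained all 9 genes and added Cyp2a22, Cyp2c38, Cyp2c50, Cyp2c54, Cyp2d9, Cyp2d10, Cyp2d22 and Cyp2e1. The 14 contained 7 of the 9 and added Cyp2c54, Cyp2c67, Cyp2d9, Cyp2d12, Cyp2j6, Cyp3a11 and Cyp3a44, while the 6 contained 5 of the 9 and added Cyp1a2. Por, Cyp2c39, Cyp3a13 and Cyp2r1 were under 0.05 with any of the 8 livers left out. The share of all genes that stay under 0.05 in every such fit was not counted, here or for genes named below. Cyp2c37 and Cyp2j5 each lost the threshold in 6 of these 8 fits, Cyp2d13 and Cyp2c55 in 3 and Cyp2u1 in 2.

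Por had the highest fold change of the tested members. It stood at 369, 216, 190.3 and 299 CPM in the control livers and 406, 504, 464 and 392 CPM in the Smo-KO livers. Every Smo-KO liver lay above every control liver, although the gap between the highest control liver (number 1) and the lowest Smo-KO liver (number 4) was small beside the spread among controls. The group means were 268 ± 81.4 CPM and 441 ± 52.4 CPM (SD over 4 livers), a ratio of 1.64. The edgeR test gave a log2 fold change of 0.72 with an SE of 0.18, an unadjusted p = 0.00143 and an adjusted p = 0.146, and DESeq2 an adjusted p of 0.0122. The exact two-sided permutation test of its log2 CPM over the 70 assignments gave p = 0.0286, the smallest that 4 against 4 livers allow. This p follows from groups that do not overlap, as in 3.03% of all genes (higher) and 4.34% (lower), and adds nothing to that observation. Its log2 fold change was 0.91 without control liver 1 and 0.59 without control liver 3. Por lies at chr5:135670040-135735326 (GRCm38), outside the P450 clusters.

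The listed promoter window of Por held more GC boxes and AhR element cores and had a higher GC content than most P450 promoters. Like many of them, it lacked the TATA box letters. RefSeq promoters (250 bases before to 50 after the start, GRCm38.p6) were listed for 51 of the 59 members, in 54 windows. The letters TATAAA, the core of the TATA box, were present on either strand in 26 of 53 P450 windows (49.1%) against 13.6% of all 32851 windows, and not in that of Por. GGGCGG, the GC box, was in 7 of the 53 (13.2%) and in 35.7% of all windows, and Por had 4 copies. CAAAGTCCA, a sequence bound by the liver factor HNF4, was in 8 P450 windows (15.1%) against 0.475% of all. They belong to Cyp2c40, Cyp2c65, Cyp2c67, Cyp2c68, Cyp2c69, Cyp2c70, Cyp3a11 and Cyp3a16. AGGTCA, the core bound by many nuclear receptors, was in 19 P450 windows (35.8%) against 16.3%. GCGTG, the core of the AhR element, was in 10 P450 windows (18.9%), among them Cyp1a1, against 32.4% of all, and Por had 3 copies. TTATGNAA, the D-box bound by Dbp, Tef and Hlf, was in 5 P450 windows (9.43%, those of Cyp2a4, Cyp2a5, Cyp2b10, Cyp2b19 and Cyp2b23) against 3.39%. Neighbouring genes of a cluster are copies of each other, so these windows are not independent, and a match describes letters and not binding. No motif searched contains another. The median GC content was 47.7% in the P450 windows, 52.7% in all windows and 67.3% in that of Por. The 250 bases before the RefSeq start are shown, 5′ to 3′, for Por at chr5:135688895-135689144 (plus strand), for Cyp2e1, the most abundant P450 gene here, at chr7:140763569-140763818 (plus strand), and for Cyp3a11, the most abundant gene with the HNF4 sequence, at chr5:145879855-145880104 (minus strand). Capitals mark the TATA box, GC box, HNF4 and nuclear receptor letters on either strand.
Por: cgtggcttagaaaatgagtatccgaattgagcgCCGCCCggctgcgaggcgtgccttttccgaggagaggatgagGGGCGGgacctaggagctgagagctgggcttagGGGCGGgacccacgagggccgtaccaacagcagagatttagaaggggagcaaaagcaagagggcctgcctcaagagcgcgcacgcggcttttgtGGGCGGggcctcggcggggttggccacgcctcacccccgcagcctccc
Cyp2e1: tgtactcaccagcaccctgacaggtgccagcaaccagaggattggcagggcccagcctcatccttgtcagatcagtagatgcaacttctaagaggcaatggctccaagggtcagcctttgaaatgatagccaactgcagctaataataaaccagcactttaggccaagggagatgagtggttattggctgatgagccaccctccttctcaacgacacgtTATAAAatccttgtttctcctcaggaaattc
Cyp3a11: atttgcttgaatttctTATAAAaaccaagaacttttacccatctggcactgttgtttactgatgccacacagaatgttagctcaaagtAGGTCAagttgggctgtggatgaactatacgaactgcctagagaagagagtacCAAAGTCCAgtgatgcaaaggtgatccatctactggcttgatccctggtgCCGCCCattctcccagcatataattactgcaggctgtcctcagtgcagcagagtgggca
The 4 marks of Por are all GC boxes. Cyp2e1 carries TATAAA at position -31 from its start, and Cyp3a11 carries 1 match of each of the 4 motifs, with TATAAA at position -234. For Por, the start used is that of its listed promoter window and not the 5′ end of its RefSeq gene. That gene begins at chr5:135670040, so the bases shown lie inside it. GENCODE M21 also gives Por a start 19112 bases away from the one used here.

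The P450 genes as a sum did not separate the groups. They took 1.78, 1.54, 1.28 and 1.59% of the reads on genes in the control livers and 1.57, 1.8, 1.78 and 1.67% in the Smo-KO livers. Their summed CPM was 15475 ± 2442 CPM in control and 17110.5 ± 1278 CPM in Smo-KO livers, and control liver 1 had the highest sum of all 8. The log2 ratio of the means was 0.14, with 0.06 without control liver 3 and 0.24 without control liver 1. With each liver left out, the log2 ratios of the subfamily sums were -0.37 to -0.12 for 1a, -0.02 to 0.27 for 2a, 0.03 to 0.18 for 2c, 0.09 to 0.31 for 2d, 0.12 to 0.35 for 2e, -0.18 to -0.05 for 2j and 0.23 to 0.42 for 3a. The sum of P450 CPM per CPM of Por had groups that did not overlap, as had the ratio to Por of 45.2% of all genes tested. This ratio was 50.2, 70.1, 66 and 52.6 in the control livers and 38.1, 36.4, 38.4 and 42.9 in the Smo-KO livers, with means of 59.7 ± 9.82 and 39 ± 2.81 (SD). All 4 Smo-KO livers thus had fewer P450 reads per Por read than any control liver, and the ratio does not depend on library scaling. The groups also stayed apart without Cyp2e1 (38.0 to 53.4 in control, 27.2 to 32.6 in Smo-KO livers) and without the 5 most abundant P450 genes (19.5 to 27.8 and 13.4 to 17.5), sums chosen after the ratio had been seen. For single genes, the ratio to Por had a lower mean in Smo-KO livers for all 41 tested P450 genes, against 99.2% of the 12976 genes tested besides Por, and the livers did not overlap for 19 of the 41 (46.3%), against 45.2%. The shares of P450 genes were near those of all genes. All these ratios share the same Por values.

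Por works beside cytochrome b5 and other redox partners. The list read for them held 7 genes, among them Ephx1, an epoxide hydrolase and not a redox partner. Of the 7, 0 were at an unadjusted p under 0.05, against 13.8% of all genes, and their median log2 fold change was 0.07. Cyb5a, which encodes cytochrome b5, was at 793, 739.8, 667 and 794 CPM in the control livers and 706, 861, 907 and 866 CPM in the Smo-KO livers (log2 fold change 0.16, SE 0.10, unadjusted p = 0.143, adjusted p = 0.514 by edgeR), with overlapping groups, and it was under an unadjusted p of 0.05 without Smo-KO liver 1 (0.24). Cyb5r3, its reductase, had a log2 fold change of 0.07 ± 0.09 SE, unadjusted p = 0.43, and 0.03 to 0.14 with each liver left out. Por per Cyb5a was 0.465, 0.292, 0.285 and 0.376 in the control livers and 0.574, 0.586, 0.512 and 0.452 in the Smo-KO livers, where only control liver 1 and Smo-KO liver 4 crossed.

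Heme is the other shared need of the P450 enzymes. Alas1, the rate-limiting enzyme of heme synthesis, was at 407, 303, 313 and 393 CPM in the control livers and 399, 753, 690.4 and 423 CPM in the Smo-KO livers (log2 fold change 0.68, SE 0.19, unadjusted p = 0.00394, adjusted p = 0.176 by edgeR, and DESeq2 adjusted p = 0.0351). Smo-KO livers 2 and 3 stood far above all others, while livers 1 and 4 lay near the highest control livers. Hmox1, which breaks heme down, was at 109, 86.3, 106 and 108 CPM in the control livers and 101, 68.7, 79.5 and 78.2 CPM in the Smo-KO livers (log2 fold change -0.32, SE 0.12, unadjusted p = 0.0217, adjusted p = 0.283), and Smo-KO liver 1 lay within the control range. Hmox1 was no longer under 0.05 without control liver 4 or Smo-KO liver 2 or 4. These were the only 2 of the 14 genes of heme synthesis and breakdown at an unadjusted p under 0.05, 1 higher and 1 lower (14.3%, against 13.8% of all genes), and the median log2 fold change of the 14 was 0.06.

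**Figure D2:**
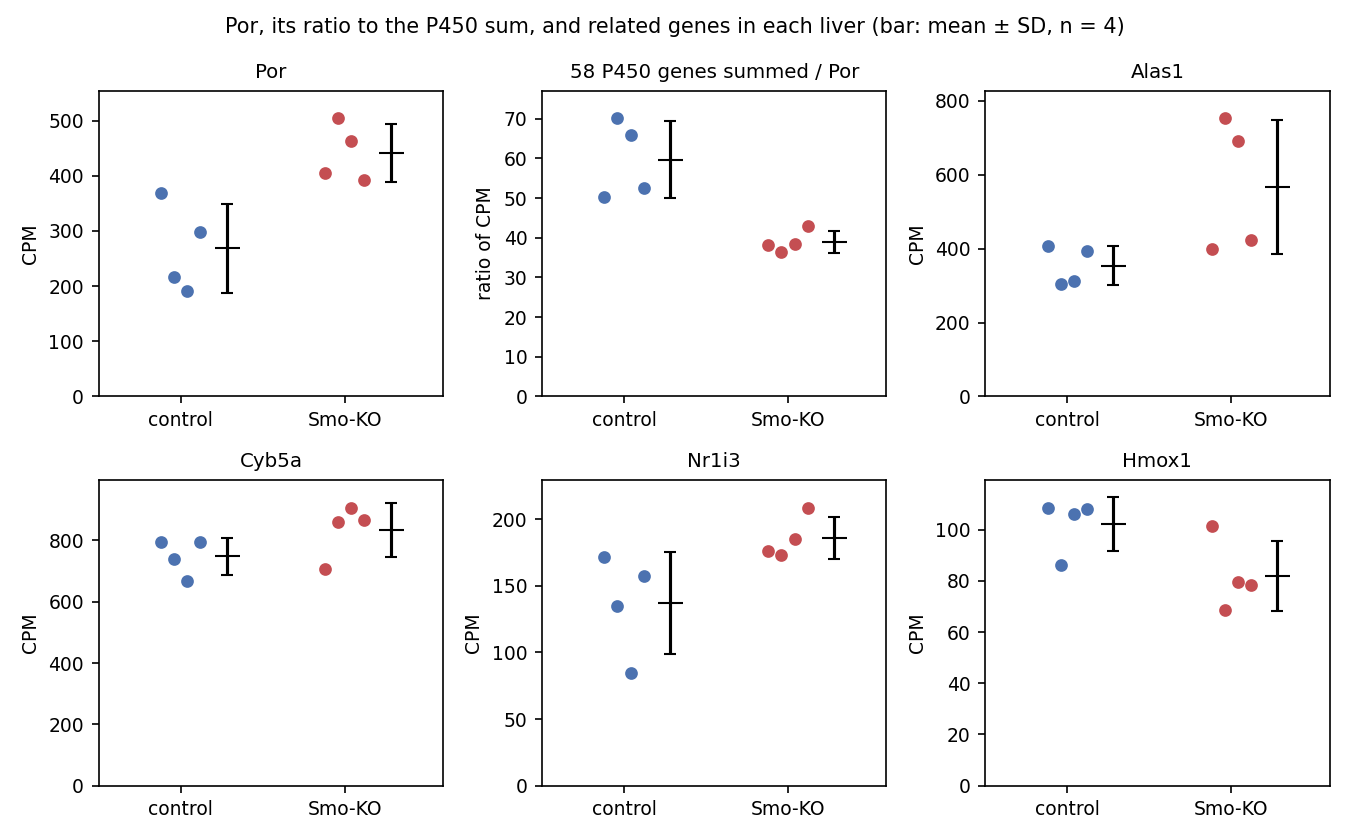
CPM of Por, Alas1, Cyb5a, Nr1i3 and Hmox1, and the ratio of the summed P450 CPM to Por CPM, on the y axes from 0, for each control and Smo-KO liver (points) with mean and SD of 4 livers (black). The groups are apart for Por (190.3 to 369 against 392 to 504 CPM), for the ratio (50.2 to 70.1 against 36.4 to 42.9) and narrowly for Nr1i3.

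Levels spanned a wide range. To compare genes, CPM was divided by the length of the longest GENCODE M21 transcript, which was found for 58 of the 59 members (not for Cyp2d13). Over all 8 livers Cyp2e1 was the most abundant per length at 2158 CPM per kb, followed by Cyp2a5 (1068), Cyp2d9 (800.0), Cyp2d10 (613), Cyp2d26 (604), Cyp1a2 (560.0) and Cyp3a11 (503). The range of Cyp2e1 over the livers lay above those of all other members. From Cyp2a5 on, the ranges of neighbours in this order overlapped. All genes were read in the same 8 livers, so overlapping ranges do not decide the order within a liver. Por was at 135 CPM per kb, between Cyp2c23 (148) and Cyp2a4 (121). It lay at 102 in control and 167 CPM per kb in Smo-KO livers. Members varied more between livers of a group than the median gene did: among genes with a mean of at least 10 CPM, the median SD of log2 CPM was 0.29 in control and 0.18 in Smo-KO livers for 30 members, and 0.15 in both groups for 9337 genes.

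**Figure D3:**
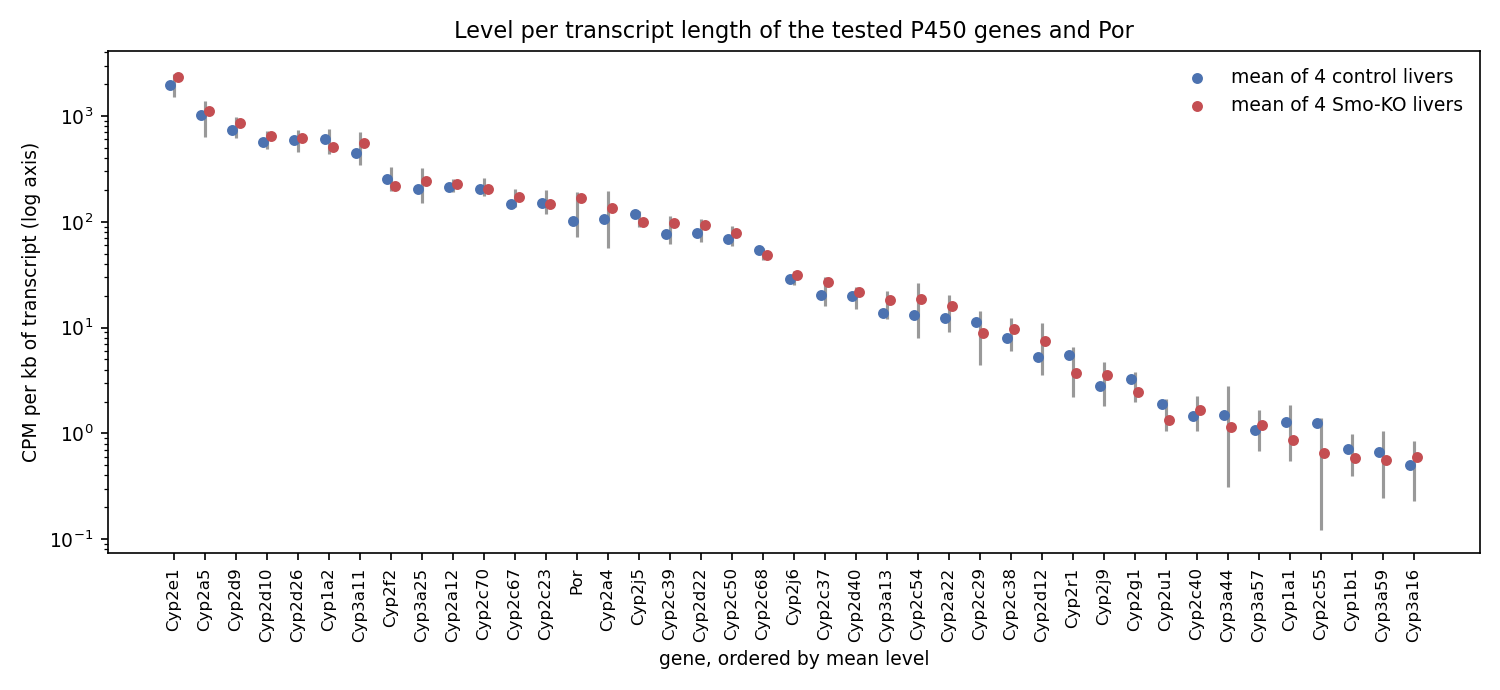
CPM per kb of transcript (y axis, log scale) of the tested members with an annotated transcript, ordered by mean level over 8 livers. Points are group means of 4 livers and grey lines the lowest to highest liver. Cyp2e1 stands highest at 2158 and Por lies in the upper part of the order at 135.

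Subfamily 1a holds Cyp1a1 and Cyp1a2, the enzymes of polycyclic compounds and caffeine. Cyp1a2, 99.7% of the sum, was at 1476, 1085, 851 and 1298 CPM in the control livers and 1009.9, 1063, 919.6 and 988 CPM in the Smo-KO livers. The 4 Smo-KO livers lay close together inside the range of the control livers (log2 fold change -0.24, SE 0.14, unadjusted p = 0.112, adjusted p = 0.473). The log2 fold change was -0.12 without control liver 1 and -0.37 without control liver 3 (under 0.05 in the unadjusted edgeR test). Cyp1a1, the most inducible AhR target, was at 3.74, 2.31, 2.88 and 4.95 CPM in the control livers and 2.47, 2.18, 1.46 and 3.2 CPM in the Smo-KO livers, near the bottom of the order, and its groups overlapped (log2 fold change -0.56, SE 0.29, unadjusted p = 0.0733, adjusted p = 0.406). Its log2 fold change was -0.33 without control liver 4, and it was under an unadjusted p of 0.05 without control liver 2 (-0.71) or Smo-KO liver 4 (-0.75). Both log2 fold changes were below 0. The summed CPM was 1181 ± 271 CPM in control and 998 ± 59.7 CPM in Smo-KO livers, with overlapping groups.

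Subfamily 2a, whose Cyp2a5 acts on coumarin and nicotine, had log2 fold changes from 0.10 to 0.37 in its 4 members, with 0 at an unadjusted p under 0.05. Cyp2a5 was at 2785, 1856, 1276 and 2371 CPM in the control livers and 1985, 2388, 2398 and 2143 CPM in the Smo-KO livers, and the Smo-KO livers again lay within the wide range of the control livers. Its fold change was 0.10 ± 0.19 (SE) on the log2 scale, with an unadjusted edgeR p of 0.584, and turned to -0.06 without control liver 3. Cyp2a12, a bile acid hydroxylase, had 735 ± 96.2 CPM in control and 792 ± 67.6 CPM in Smo-KO livers (SD, log2 fold change 0.11 ± 0.11 SE, unadjusted p = 0.335, and 0.06 to 0.20 with each liver left out). Cyp2a4, a steroid hydroxylase that is higher in females, ranged from 99.2 to 308 CPM in control and from 130.0 to 341 CPM in Smo-KO livers (log2 fold change 0.33 ± 0.32 SE, unadjusted p = 0.322). It was 0.10 without Smo-KO liver 1 and 0.69 without control liver 4, there under an unadjusted p of 0.05. Of the 100-base windows of their transcripts, 85.6% in Cyp2a5 and 88.8% in Cyp2a4 occur in no other gene, so part of the reads of this pair could be assigned to either. The sum was 3036 ± 814 CPM in control and 3310.0 ± 178 CPM in Smo-KO livers, and without control liver 3 the difference turned (log2 ratio of the means 0.12 with all livers and -0.02 without it).

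Subfamily 2b was nearly silent. Cyp2b10, the usual readout of CAR, had 4, 0, 5 and 5 reads in the control livers and 4, 4, 1 and 3 in the Smo-KO livers. Cyp2b9, a female-type gene, had 1 read in all, Cyp2b19 had 2, and Cyp2b13 and Cyp2b23 had 0. No fold change is given for these genes. The 0 counts of Cyp2b13 allow up to 0.297 to 0.366 CPM per liver.

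Subfamily 2c, the largest with 15 members, includes steroid and arachidonic acid hydroxylases, and 12 members were tested. Log2 fold changes ran from -0.91 (Cyp2c55) to 0.49 (Cyp2c54), 7 above and 5 below 0. Cyp2c54 had an SE of 0.28 and an unadjusted p = 0.109 by edgeR, and 0.28 to 0.73 with each liver left out. Cyp2c39 was at 146, 155, 113 and 147 CPM in the control livers and 162, 207, 167 and 176 CPM in the Smo-KO livers, and every Smo-KO liver was above every control liver (log2 fold change 0.34, SE 0.12, unadjusted p = 0.011, adjusted p = 0.24 by edgeR, and DESeq2 adjusted p = 0.152). Its RefSeq interval, chr19:39347346-39569568, spans that of Cyp2c38 (chr19:39389556-39463103), which had a log2 fold change of 0.28 ± 0.19 SE, unadjusted p = 0.163, and 0.14 to 0.48 with each liver left out, the highest without control liver 1. Cyp2c37, which makes epoxides of arachidonic acid, was at 55.1, 35.8, 29.1 and 29.8 CPM in the control livers and 53.2, 47, 46.3 and 48.9 CPM in the Smo-KO livers, and control liver 1 lay above all Smo-KO livers (log2 fold change 0.39, SE 0.17, unadjusted p = 0.0426, adjusted p = 0.342). Without that liver the log2 fold change of Cyp2c37 was 0.63. Cyp2c55 is mainly a gene of the intestine and was low here, with 22, 21, 28 and 26 reads in the control livers and 19, 16, 2 and 12 in the Smo-KO livers. All its Smo-KO values, 1.96, 1.75, 0.244 and 1.28 CPM, lay below the lowest control value of 2.2 CPM (log2 fold change -0.91, SE 0.37, unadjusted p = 0.0278, adjusted p = 0.301), and liver 3 was far below the others (log2 fold change -0.59 without it).

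Cyp2c70, Cyp2c23 and Cyp2c67, the most abundant Cyp2c genes, had overlapping groups. Cyp2c70, which forms muricholic acids, was at 373, 349, 342 and 337 CPM in the control livers and 303, 442, 339.8 and 309 CPM in the Smo-KO livers (log2 fold change -0.01 ± 0.12 SE, unadjusted p = 0.95), a value whose sign turned without control liver 1. Cyp2c23, an epoxygenase, stood at 286 ± 67.6 CPM in control and 282 ± 7.16 CPM in Smo-KO livers (SD, log2 fold change -0.02 ± 0.13 SE, unadjusted p = 0.866), and its log2 fold change was 0.15 without control liver 1. For Cyp2c67 the values were 258 ± 9.14 CPM in control and 296 ± 60.8 CPM in Smo-KO livers (SD, log2 fold change 0.20 ± 0.13 SE, unadjusted p = 0.139), with 0.10 without Smo-KO liver 2 and 0.30 without Smo-KO liver 1. In Cyp2c67, 76.3% of its 100-base windows were its own, and its shared windows were most often those of Cyp2c69. Cyp2c29, a common readout of CAR and PXR, was low at 40.4, 34.2, 22.4 and 31.7 CPM in the control livers and 29.8, 25.3, 12.6 and 32.6 CPM in the Smo-KO livers, with a log2 fold change of -0.13 without Smo-KO liver 3 and, with all livers, of -0.35 ± 0.24 SE, unadjusted p = 0.17. The sum of the subfamily was 1374 ± 151 CPM in control and 1470.2 ± 153 CPM in Smo-KO livers. The gene cluster runs from Cyp2c55 to Cyp2c70, chr19:39006940-39042690 to chr19:40153361-40187286, with Cyp2c23 apart at chr19:44005022-44029256.

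All 7 tested genes of subfamily 2d, counterparts of the human debrisoquine hydroxylase, had log2 fold changes above 0, from 0.07 (Cyp2d26) to 0.53 (Cyp2d12). Cyp2d12 had an SE of 0.25 and an unadjusted p = 0.0534 by edgeR (0.0295 by DESeq2), and 0.29 to 0.74 with each liver left out. Of the 7 genes, 1 was at an unadjusted p under 0.05 by edgeR. That gene, Cyp2d13, is a transcribed pseudogene in RefSeq at chr15:82636750-82642045. It was at 155, 147, 82.9 and 104 CPM in the control livers and 136, 169, 166 and 197 CPM in the Smo-KO livers, with all Smo-KO livers above control livers 3 and 4 and Smo-KO liver 1 below control livers 1 and 2 (log2 fold change 0.45, SE 0.18, unadjusted p = 0.0252, adjusted p = 0.291). Cyp2d9, the male-type testosterone hydroxylase, was at 1598, 1296, 1051 and 1123 CPM in the control livers and 1099.9, 1578, 1667 and 1542 CPM in the Smo-KO livers (log2 fold change 0.22 ± 0.15 SE, unadjusted p = 0.175). Smo-KO liver 1 lay with the lower controls and the other 3 Smo-KO livers near control liver 1. Without control liver 1 the log2 fold changes of Cyp2d9, Cyp2d10 and Cyp2d22 were 0.35, 0.31 and 0.32, each under an unadjusted p of 0.05, and without control liver 3 they were 0.14, 0.12 and 0.14. Cyp2d10 stood at 946 ± 167 CPM in control and 1076 ± 72.4 CPM in Smo-KO livers (SD, log2 fold change 0.19 ± 0.12 SE, unadjusted p = 0.138), and Cyp2d22 had a log2 fold change of 0.23 ± 0.12 SE, unadjusted p = 0.0815. Cyp2d26 was at 1001 ± 196 CPM in control and 1052 ± 25.5 CPM in Smo-KO livers (SD, log2 fold change 0.07 ± 0.12 SE, unadjusted p = 0.573), a difference that turned to -0.03 without control liver 3. The summed CPM was 4574, 3618, 2976 and 3477 CPM in the control livers and 3589.6, 4294, 4338 and 4379 CPM in the Smo-KO livers. The genes lie in 1 cluster between chr15:82370527-82380260 and chr15:82790107-82794452, and Cyp2d9 and Cyp2d10 share windows with their neighbours (90.1% and 85.2% of windows unique).

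Cyp2e1, the only Cyp2e gene, metabolizes ethanol, acetone and fatty acids and is a known source of oxidants in steatohepatitis. It was at 4482, 3594, 2768 and 3689 CPM in the control livers and 4052, 4618, 4382 and 4055 CPM in the Smo-KO livers. The 4 Smo-KO livers lay between 4052 and 4618 CPM, above control livers 2 to 4 and on both sides of control liver 1 (log2 fold change 0.24, SE 0.13, unadjusted p = 0.0917, adjusted p = 0.439). The log2 fold change was 0.35 without control liver 1 (under 0.05 in the unadjusted edgeR test) and 0.13 without control liver 3. It made up 24.3% of the summed CPM of all P450 genes.

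In subfamily 2j, epoxygenases of arachidonic acid, 3 of 7 members were tested. Cyp2j5 was at 265, 282, 299 and 266 CPM in the control livers and 209, 278, 239 and 217 CPM in the Smo-KO livers, lower in Smo-KO livers except for number 2, which lay within the control range (log2 fold change -0.24, SE 0.10, unadjusted p = 0.0367, adjusted p = 0.327). Cyp2j6 had the opposite sign, at 103 ± 3.69 CPM in control and 113 ± 15.1 CPM in Smo-KO livers (SD, log2 fold change 0.13 ± 0.10 SE, unadjusted p = 0.217), and at 0.23 on the log2 scale without Smo-KO liver 1. The summed CPM was 388 ± 18 CPM in control and 358 ± 39.4 CPM in Smo-KO livers.

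Subfamily 3a metabolizes the widest range of drugs. Cyp3a11, its main hepatic gene and the readout of PXR, was at 957, 1555, 1318 and 1142 CPM in the control livers and 1209.7, 1962, 1883 and 1241 CPM in the Smo-KO livers. Smo-KO livers 2 and 3 were above all controls, and livers 1 and 4 were within their range (log2 fold change 0.34, SE 0.18, unadjusted p = 0.0831, adjusted p = 0.424). The log2 fold change was 0.22 without Smo-KO liver 2, and it was under an unadjusted p of 0.05 without control liver 2 (0.47), Smo-KO liver 1 (0.45) or Smo-KO liver 4 (0.44). Alas1, above, was highest in the same 2 livers. The controls went the other way. Alas1 was highest in control liver 1 (407 CPM), where Cyp3a11 was lowest. It was lowest in control liver 2 (303 CPM), where Cyp3a11 was highest. Cyp3a13 was at 43.4, 41.2, 35.4 and 43.5 CPM in the control livers and 46.2, 65.3, 56.8 and 48.7 CPM in the Smo-KO livers, and the groups did not overlap (log2 fold change 0.41, SE 0.12, unadjusted p = 0.005, adjusted p = 0.19 by edgeR, and DESeq2 adjusted p = 0.0948). It lies apart from the other Cyp3a genes, at chr5:137892933-137925610, and none of the 4 motifs marked in the sequences above is in its RefSeq promoter window. Cyp3a25 was at 406 ± 75 CPM in control and 481 ± 114 CPM in Smo-KO livers (SD, log2 fold change 0.25 ± 0.17 SE, unadjusted p = 0.16), and its log2 fold change was 0.08 without Smo-KO liver 4 and 0.13 without control liver 3. The 4 others had at most 3.76 CPM in a control liver and 5.46 in a Smo-KO liver. Cyp3a41a, a female-type gene whose symbol does not meet the rule, had 173 reads over the 8 livers. The subfamily sum was 1452, 2009, 1662 and 1665 CPM in the control livers and 1676, 2515, 2338 and 1937 CPM in the Smo-KO livers, a ratio of means of 1.25 with overlapping groups.

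**Figure D4:**
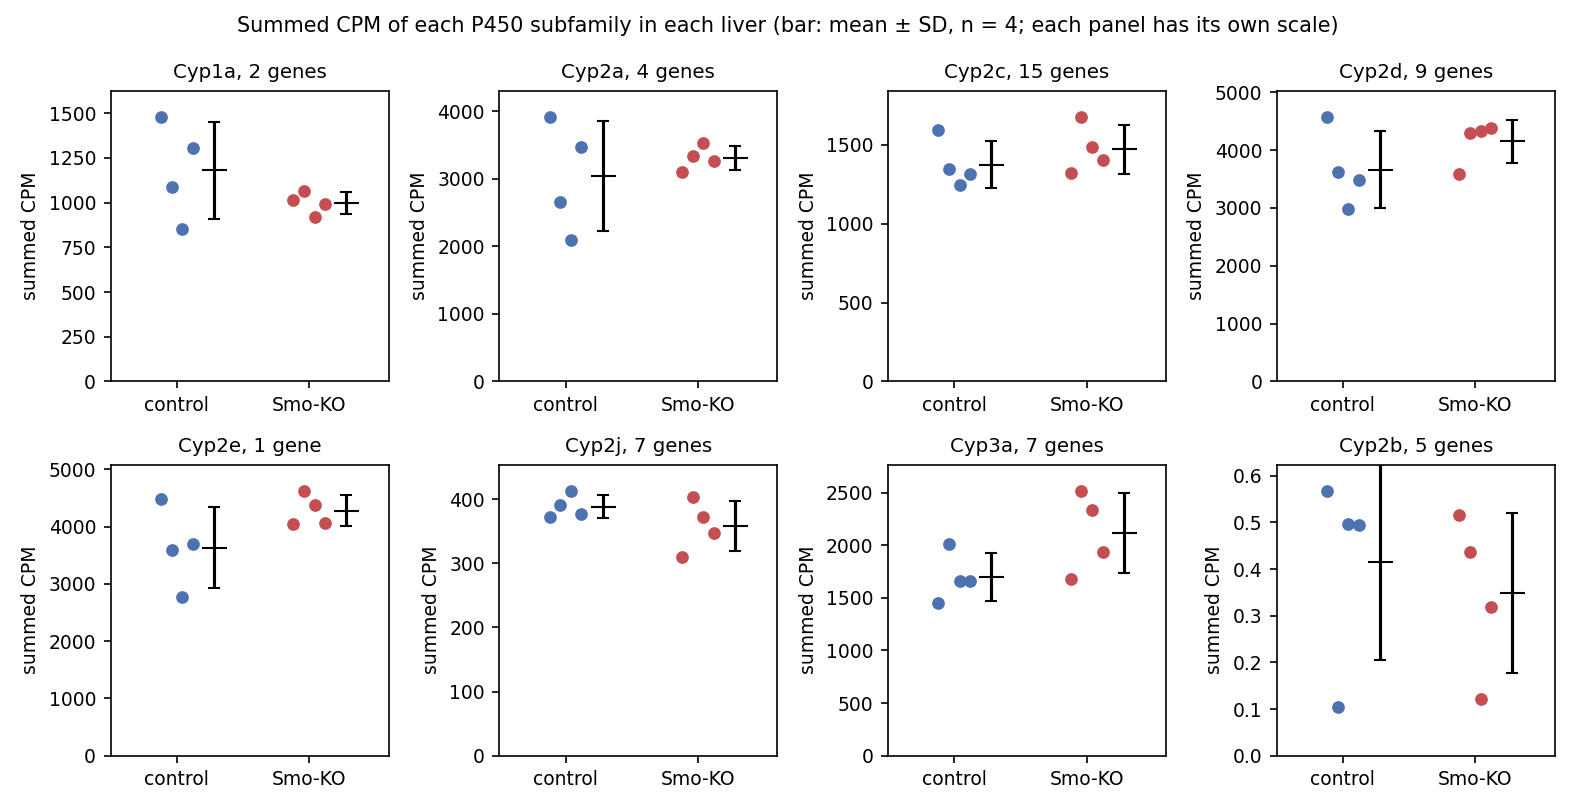
Summed CPM (y axis from 0, own scale per panel) of the 8 subfamilies in each control and Smo-KO liver, with mean and SD of 4 livers. Groups overlap in every panel. Smo-KO means are higher for 2c, 2d, 2e and 3a, higher for 2a only with control liver 3 included, and lower for 1a and 2j, and the panel of 2b shows values near the floor.

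Among the genes outside these 8 subfamilies, Cyp2r1 and Cyp2u1 were lower in Smo-KO livers. Cyp2r1, an enzyme that activates vitamin D, was at 8.85, 9.54, 11.2 and 12.4 CPM in the control livers and 7.84, 4.14, 6.95 and 8.95 CPM in the Smo-KO livers (log2 fold change -0.59, SE 0.21, unadjusted p = 0.0144, adjusted p = 0.25), and Smo-KO liver 4 alone reached into the control range. Cyp2u1, a fatty acid hydroxylase, was at 9.19, 9.12, 8.45 and 6.13 CPM in the control livers and 5.67, 6.76, 4.63 and 6.29 CPM in the Smo-KO livers (log2 fold change -0.49, SE 0.18, unadjusted p = 0.0178, adjusted p = 0.266), with control liver 4 among the Smo-KO values. Cyp2f2, the periportal member that activates naphthalene, was at 613, 408, 508 and 365 CPM in the control livers and 364, 409.9, 448 and 416 CPM in the Smo-KO livers (log2 fold change -0.21 ± 0.14 SE, unadjusted p = 0.167). It was -0.06 without control liver 1 and -0.31 without control liver 4 (under 0.05 in the unadjusted edgeR test). The pericentral Cyp2e1 per periportal Cyp2f2 was 7.32, 8.81, 5.44 and 10.1 in the control livers and 11.1, 11.3, 9.78 and 9.75 in the Smo-KO livers, where control liver 4 lay within the Smo-KO range.

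**Figure D5:**
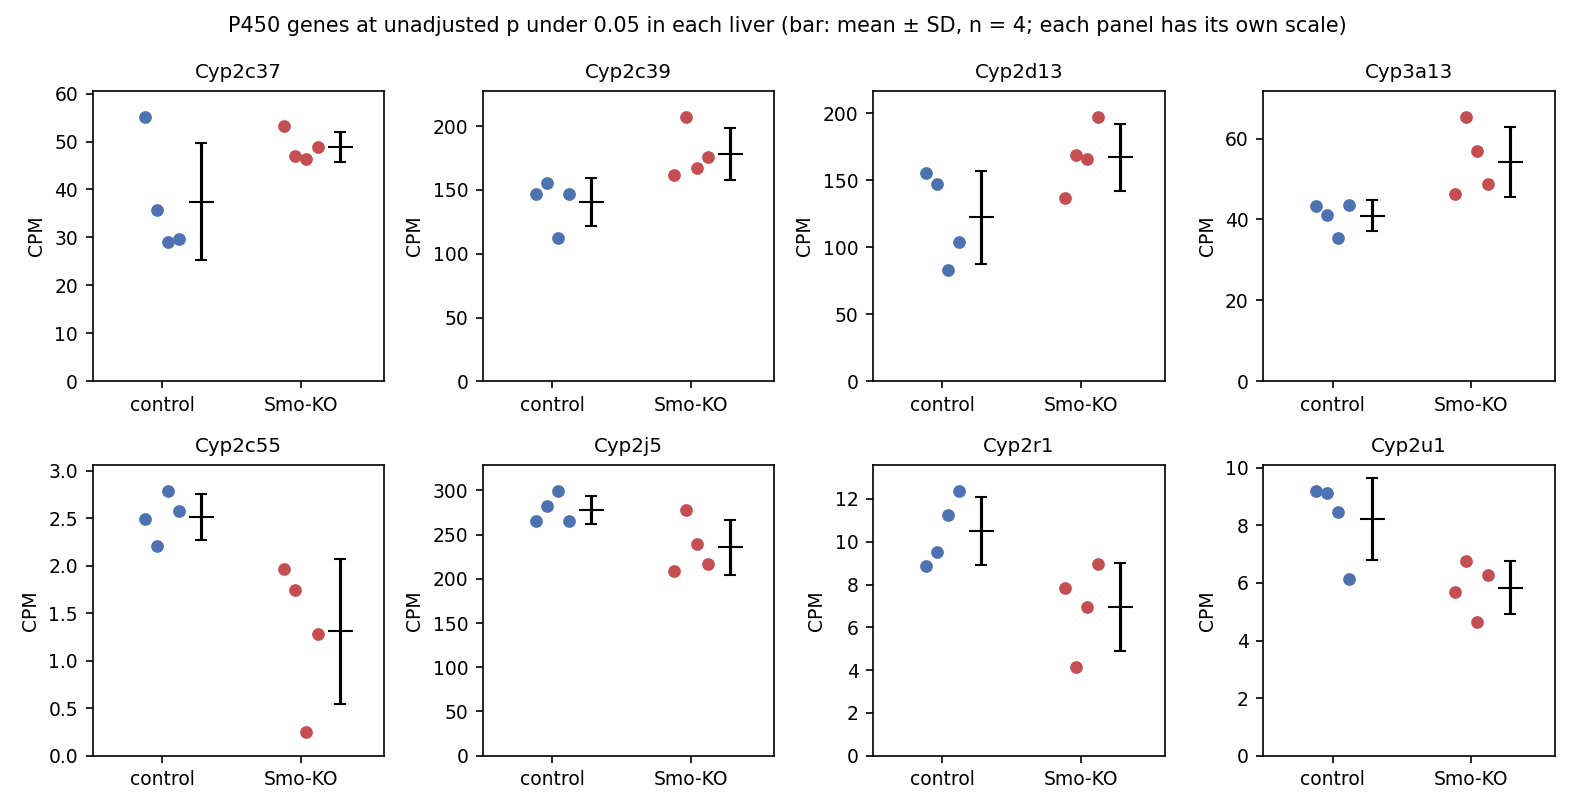
CPM (y axis from 0, own scale per panel) of the 8 P450 genes at an unadjusted p under 0.05 in each liver, with mean and SD of 4 livers. The livers of both groups are apart for Cyp2c39, Cyp3a13 and Cyp2c55 and overlap in the other 5 panels.

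Of the regulators of these genes, 24 of 25 were tested, with 3 higher and 1 lower at an unadjusted p under 0.05 (16.7%, against 13.8% of all genes) and a median log2 fold change of 0.04. Nr1i3, the receptor CAR, was at 172, 135, 84.8 and 158 CPM in the control livers and 176, 173, 185 and 209 CPM in the Smo-KO livers, just apart in the 2 groups (log2 fold change 0.44, SE 0.17, unadjusted p = 0.0244, adjusted p = 0.288 by edgeR). Without Smo-KO liver 4 its edgeR p was 0.0682, and without control liver 3 its log2 fold change was 0.27. Tef, a clock-controlled factor that acts on Nr1i3 and Cyp2a genes, was at 228, 146, 93.4 and 203 CPM in the control livers and 227, 238, 247 and 263 CPM in the Smo-KO livers (log2 fold change 0.54 ± 0.21 SE, unadjusted p = 0.0211), with control liver 1 at the level of Smo-KO liver 1. Onecut1, the liver factor HNF6, was low, at 1.47, 1.36, 3.88 and 1.29 CPM in the control livers and 2.47, 7.09, 13.8 and 4.37 CPM in the Smo-KO livers (log2 fold change 1.76 ± 0.50 SE, unadjusted p = 0.00383), and Smo-KO liver 3 was the highest. Onecut1 alone of the 4 was under 0.05 with any liver left out, and its log2 fold change was 1.19 without Smo-KO liver 3. That of Tef was 0.35 without control liver 3. Nr0b2, the repressor SHP, was at 70.2 ± 35.2 CPM in control and 44.7 ± 6.7 CPM in Smo-KO livers (SD, log2 fold change -0.65 ± 0.29 SE, unadjusted p = 0.0423), and at a log2 fold change of -0.32 without control liver 1. Nr1i2, the receptor PXR, was at 116 ± 13.9 CPM in control and 129 ± 19.98 CPM in Smo-KO livers (SD, log2 fold change 0.15 ± 0.12 SE, unadjusted p = 0.241, and 0.06 to 0.24 with each liver left out), and Ahr at 76 ± 10.2 CPM in control and 60.1 ± 13.9 CPM in Smo-KO livers (SD, log2 fold change -0.34 ± 0.16 SE, unadjusted p = 0.0536, and -0.43 to -0.19 with each liver left out, the value nearest 0 without Smo-KO liver 3). Ahr was under an unadjusted p of 0.05 in 3 of the 8 fits with a liver left out.

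Targets of these receptors outside the P450 families were read at the same threshold, which 6.7% of all genes passed as higher and 7.15% as lower. Of 5 tested AhR targets, 0 were higher and 2 were lower (median -0.15): Ugt1a6a (log2 fold change -0.38 ± 0.17 SE, unadjusted p = 0.0412) and Ugt1a6b (log2 fold change -0.44 ± 0.18 SE, unadjusted p = 0.0311), near-identical genes whose reads may be split between them. Of 19 tested CAR and PXR targets, 2 were higher and 0 lower (median 0.03), Alas1 and the sulfotransferase Sult1d1 (log2 fold change 0.36 ± 0.14 SE, unadjusted p = 0.0213). Of these 4 genes, Alas1 alone was under 0.05 with any liver left out.

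Several P450 genes mark sex or position in the lobule, so genes outside the rule that do the same were read beside them. Values in parentheses are log2 fold changes with their SE and unadjusted edgeR p, and the counts stand against 6.7% of all genes higher and 7.15% lower. Of 11 tested male-biased genes, 3 were higher and 0 lower, with a median log2 fold change of 0.21. They were Cyp4a12b (1.12 ± 0.45 SE, unadjusted p = 0.0284), Cyp7b1, a steroid and oxysterol hydroxylase (0.33 ± 0.15 SE, unadjusted p = 0.0464), and Serpina12 (0.77 ± 0.26 SE, unadjusted p = 0.0112). Of 6 tested female-biased genes, 3 were higher and 1 lower, with a median of 0.43. Higher were Acot3 (2.23 ± 0.56 SE, unadjusted p = 0.00152), Abcd2 (0.44 ± 0.12 SE, unadjusted p = 0.00234) and Cyp4a10 (0.61 ± 0.26 SE, unadjusted p = 0.0383), and lower was the prolactin receptor Prlr (-0.51 ± 0.22 SE, unadjusted p = 0.0374). Acot3 and Cyp4a10 are also targets of PPAR alpha. Of 15 pericentral genes, 3 were higher and 1 lower, with a median of 0.09. Higher were the glutamate transporter Slc1a2 (0.55 ± 0.19 SE, unadjusted p = 0.0137), the ammonium transporter Rhbg (0.25 ± 0.12 SE, unadjusted p = 0.0481) and Aldh3a2 (0.29 ± 0.11 SE, unadjusted p = 0.0223), and lower was Slc1a4 (-0.71 ± 0.18 SE, unadjusted p = 0.00159). Of 12 tested periportal genes, Pigr was higher (0.20 ± 0.09 SE, unadjusted p = 0.0409) and Cps1, the entry enzyme of the urea cycle, lower (-0.33 ± 0.10 SE, unadjusted p = 0.00777), with a median of -0.18. Among all genes tested the median was -0.000845. Serpina12, Acot3, Abcd2, Slc1a4 and Cps1 were under 0.05 with any liver left out, and the other 8 genes named here were not. Without Smo-KO liver 3 the log2 fold change of Acot3 was 1.23, that of Cyp4a10 0.24 and that of Cyp4a12b 0.68. That of Rhbg was 0.15 without Smo-KO liver 2, and those of Prlr were -0.34 without control liver 1 and -0.33 without Smo-KO liver 3. The log2 fold change of Cyp7b1 was 0.22 to 0.48 with each liver left out, under 0.05 in 2 of the 8 fits.

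Markers of the cell types of the liver were read in the same fit, where again 6.7% of all genes were higher and 7.15% lower at an unadjusted p under 0.05. Of 11 hepatocyte markers, 0 were higher and 1 (Cps1) was lower, and their sum, led by Alb, was 36199 ± 2174 CPM in control and 34965 ± 888 CPM in Smo-KO livers (SD). All 6 tested T and NK cell markers, of 10 listed, were lower at an unadjusted p under 0.05 (median log2 fold change -0.85), and Cd8a, Nkg7, Cd3e and Cd4 had the smallest p-values. Of the 6, 5 were under 0.05 with any liver left out. The sum of this list, whose most abundant gene was Nkg7, was 50.1, 47.7, 42.5 and 58.6 CPM in the control livers and 22.5, 20.4, 35.4 and 33.6 CPM in the Smo-KO livers, and the groups did not overlap. None of its 9 genes present in the files was at 0 in all livers. Of 7 recruited macrophage markers, 2 were higher and 0 lower: Trem2 at 29.8, 36.2, 32.8 and 35.7 CPM in the control livers and 43.9, 54.6, 66.5 and 61.1 CPM in the Smo-KO livers (log2 fold change 0.75, SE 0.13, unadjusted p = 5.54e-05, adjusted p = 0.0957, and DESeq2 adjusted p = 0.000156) and Cd9 (log2 fold change 0.23 ± 0.10 SE, unadjusted p = 0.0328). The sum of these 7, led by Gpnmb, was 508, 605, 525 and 609.9 CPM in the control livers and 626, 708, 721 and 605 CPM in the Smo-KO livers. Col1a1 of the stellate cell list (1 of 10 lower) and Pecam1 of the endothelial list (1 of 7 lower) were lower, and 0 of 7 Kupffer cell, 0 of 5 cholangiocyte, 0 of 4 B cell and 0 of 3 neutrophil markers tested were under 0.05. The most abundant genes of these lists were Col3a1, Stab1, Cd5l, Sox9, Cd79b and Csf3r, and Ly6g alone was at 0 in every liver. With each liver left out in turn, Trem2 and Col1a1 were under 0.05 in all 8 fits, and Cd9 and Pecam1 in 5 of 8. The T and NK cell markers and Trem2 differed between the same 2 groups of livers as Por, and their part in the results above was not tested.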

How the data were processed

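Per the labels' processing notes, fastp, STAR 2.7.5, featureCounts 2.0.1 and the build GRCm38 were used, with no roles given. The deposited lists end in the summary lines that htseq-count writes, so the counter was not settled, nor how reads matching several genes were treated. The annotation and strand setting are not given in the sources used here. The authors deposited 1 list per liver of whole-number read counts per gene symbol, not normalized. Its closing lines, which name no gene, held 7.56% to 9.68% of reads without a feature and 2.45% to 2.61% ambiguous reads, and were left out. Depth was 8203299 to 9999732 reads on genes.

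Groups followed the vector in the labels. The quasi-likelihood test of edgeR 4.0.16 (R 4.3.3) compared genotypes with no other term, after filterByExpr and TMM scaling, and p-values were adjusted by Benjamini-Hochberg across the 12977 genes kept. SE is the log2 fold change divided by the root of F. The procedure was first tested on simulated data. No 2 livers of a group were copies, their chi-square per degree of freedom being 7.76 to 17.5. P-values judge the difference between the groups against the spread between these livers.

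Genes named were Smo, Por, members at an unadjusted p under 0.05 or with groups that do not overlap, the most abundant members, known sex-biased and usual readout genes, and up to 4 genes per list at an unadjusted p under 0.05 with 7 set cofactors and receptors. The members and lists were chosen with earlier results of these data known. Protein sequences were not analysed here. Windows of 100 bases and lengths came from GENCODE M21 transcripts. Alternatives were RLE size factors, DESeq2 1.42.0, library totals, other filters, the replicate number as a block and each liver left out.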

Additional observations from a re-analysis of the deposited data

Results flagged for a closer look

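Among 57 measures (tested members, subfamily sums, the ratio of P450 to Por and the named cofactors and receptors), 6 of 114 groups of 4 livers held a liver far from the other 3 by Dixon's criterion, where chance gives about 5.7. Cyp2c50, a member of the Cyp2c cluster, was at 168 CPM in control liver 1, against 107 to 117 CPM in the other controls. Cyp2g1, an olfactory P450 with few reads here, was at 3.77 CPM in control liver 2, against 6.66 to 7.15 CPM. Hmox1 was also low in control liver 2, at 86.3 CPM against 106 to 109 CPM. Smo-KO liver 1 was low in 3 measures: Cyp2d10 at 968 CPM against 1104 to 1124 CPM, Cyp2j6 at 90.4 CPM against 119 to 122.8 CPM, and the sum of subfamily 2d at 3589.6 CPM against 4294 to 4379 CPM. Smo-KO liver 1 also had the highest Smo level of its group, 5.67 CPM against 3.93 to 4.37 CPM in the other 3.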

How the results depend on the processing

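The count of genes past an adjusted p of 0.05, 0 by edgeR with 1797 at an unadjusted p under 0.05, became 163 with DESeq2, 61 with no filter and 8 with the replicate number as a block, and 15 passed 0.1. Leaving out each liver gave 0 to 78, the highest without Smo-KO liver 1. Members at an unadjusted p under 0.05 numbered 6 to 17 with each liver left out, in fits that gave 9.5% to 17.8% of all genes. Same-numbered livers correlated in their deviations from the group means at 0.104, 0.187, 0.0611 and 0.113, and control liver 1 correlated better with Smo-KO liver 4 (0.157), so the numbers were not taken as pairs. With the block, 16 members were under 0.05 (16.3% of all genes), all 9 among them and with them Cyp1a1, Cyp2a22, Cyp2a4, Cyp2c29, Cyp2d12, Cyp2d22 and Cyp3a11. Por's log2 fold change was 0.72 in DESeq2, with an adjusted p of 0.0122, and 0.59 to 0.91 over all alternatives, with adjusted p-values of 0.0122 to 0.282. Smo was past 0.05 in DESeq2 (-0.87), with no filter (-0.88) and without Smo-KO liver 1. Leaving out each liver gave -0.997 to -0.81. Without its most abundant member, the log2 ratio of the subfamily 1a sum went from -0.24 to -0.57 and that of 2j from -0.12 to 0.15, since other genes then made up the sum. None of 25 single P450 genes followed passed an adjusted p of 0.05 in any of up to 13 alternatives. Of these 25, 4 turned sign in at least 1 alternative. Cyp2a5 (-0.065 to 0.28 with each liver left out) and Cyp2d26 (-0.026 to 0.20) were below 0 without control liver 3. Cyp2c23 turned with the block (0.0041) and without control liver 1 (-0.12 to 0.15 with each liver left out). Cyp2c70 (-0.14 to 0.061) was above 0 without control liver 1 or Smo-KO liver 1, 3 or 4. Outside the 25, Cyp3a16 (-0.036 to 0.56) and Cyp3a59 (-0.59 to 0.069) also turned with single livers left out. The cause was not tested. The P450 to Por ratio kept its sign in all 10 alternatives. In low members, such as Cyp2c55 at 2 to 28 reads a liver, counting error adds to the spread between livers.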
